A study of Mus musculus with 8 samples.

Results

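The genes described here build the cornified layer of the epidermis. They were taken by name from the array annotation: every probe set whose single symbol is a late cornified envelope (Lce) or small proline-rich (Sprr) gene, together with a set list of suprabasal keratins, S100 fused-type proteins, other envelope proteins, cross-linking and processing enzymes, kallikreins with their inhibitor, and corneodesmosome proteins. The rule found 56 genes, each with 1 probe set, among 19572 named probe sets and 22206 tested. It used no measured value. Filaggrin (Flg) was on the list of names but was not analysed here. By subfamily there were 14 Lce1, 6 Lce3 and 1 other Lce gene (Lce6a), 2 Sprr1, 9 Sprr2 and 2 further Sprr genes (Sprr3 and Sprr4), 4 keratins (Krt1, Krt2, Krt10, Krt77), 3 S100 fused-type genes (Flg2, Hrnr, Rptn), 3 other envelope genes (Ivl, Lor, Cnfn), 4 enzymes (Tgm1, Tgm3, Casp14, Asprv1), 5 genes of the kallikrein group (Klk5, Klk6, Klk7, Klk8, Spink5) and 3 corneodesmosome genes (Cdsn, Dsc1, Dsg1a). All 34 Lce and Sprr genes, and 39 of the 56 genes in all, lie on chromosome 3.

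RNA from dorsal skin of male C3H mice was measured on 8 Clariom S Mouse arrays, 2 in each of 4 groups. All mice were 7 weeks old, were acclimatized for 7 days, were split at random into groups of 8 and had the back depilated with a cream. They then received a daily topical treatment for 20 days, with Milli-Q water (control), minoxidil, tieghemelin or maslinic acid. The titles name both control arrays as controls of tieghemelin and maslinic acid. They served here for minoxidil too, so every minoxidil difference from control rests on controls that the labels do not assign to it. Minoxidil is a drug applied to the scalp against hair loss, and maslinic acid is a plant triterpene. The labels give each compound at 1%, except that 1 label of minoxidil array 2 gives 2%. They do not tie an array to a mouse or a pool of mice, so the p-values below measure the spread between arrays, which may be technical. In RNA of whole tissue, fewer keratinocytes and less RNA per keratinocyte cannot be told apart.

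As keratinocytes leave the basal layer they replace Krt5 and Krt14 with Krt1 and Krt10, and in the granular layer they lay down a protein shell beneath the membrane, the cornified envelope. Involucrin (Ivl) forms an early scaffold, loricrin (Lor), Sprr and Lce proteins are added to it, and transglutaminases join them by covalent bonds. Filaggrin-like S100 fused-type proteins bundle keratin, proteases process them, and kallikreins cut the corneodesmosomes so that dead cells are shed. Most of the envelope genes sit side by side in one gene cluster, the epidermal differentiation complex. In mouse skin the upper hair follicle cornifies with these genes as well.

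The stretches just before the transcription start are shown first, because they set most Lce1 genes apart from the Sprr genes. RefSeq promoter entries (build GRCm38.p6) matched 49 of the 56 genes. Krt1, Lce1f, Dsc1, Dsg1a, Spink5, Sprr2g and Sprr2j-ps had none in that table. Each line gives the 60 bases before the start on the gene's own strand, 5′ to 3′, for the 10 Lce1 and Sprr2 genes with an entry that met the study's thresholds (defined below) in any comparison, with or without control array 1, and for Ivl and Krt10 as an envelope gene and a keratin outside those families. The capitals mark a TATAAA match, or the AATAAAA that most Lce1 genes carry at about the same place. Lce1l holds neither and is in lower case.
Lce1a2: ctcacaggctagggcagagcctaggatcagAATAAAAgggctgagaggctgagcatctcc
Lce1b: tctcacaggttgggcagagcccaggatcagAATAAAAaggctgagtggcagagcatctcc
Lce1c: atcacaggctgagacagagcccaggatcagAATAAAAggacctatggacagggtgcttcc
Lce1e: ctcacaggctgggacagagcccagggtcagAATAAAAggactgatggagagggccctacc
Lce1j: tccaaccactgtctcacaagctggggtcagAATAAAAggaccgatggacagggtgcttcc
Lce1k: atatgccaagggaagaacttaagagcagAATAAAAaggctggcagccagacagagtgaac
Lce1l: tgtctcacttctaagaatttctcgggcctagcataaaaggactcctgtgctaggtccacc
Sprr2d: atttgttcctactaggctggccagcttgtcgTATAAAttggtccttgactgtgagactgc
Sprr2h: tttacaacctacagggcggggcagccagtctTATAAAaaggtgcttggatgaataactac
Sprr2i: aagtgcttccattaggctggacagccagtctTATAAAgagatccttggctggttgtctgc
Ivl: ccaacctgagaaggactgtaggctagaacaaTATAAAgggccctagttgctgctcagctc
Krt10: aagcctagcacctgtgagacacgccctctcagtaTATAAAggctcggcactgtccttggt

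The Lce1 stretches lie at chr3:92670316-92670375 (minus strand) for Lce1a2, chr3:92656927-92656986 (minus) for Lce1b, chr3:92679187-92679246 (plus) for Lce1c, chr3:92709075-92709134 (minus) for Lce1e, chr3:92790515-92790574 (minus) for Lce1j, chr3:92807892-92807951 (minus) for Lce1k and chr3:92851287-92851346 (minus) for Lce1l. Those of the other genes lie at chr3:92339080-92339139 (plus) for Sprr2d, chr3:92385625-92385684 (plus) for Sprr2h, chr3:92407931-92407990 (plus) for Sprr2i, chr3:92573736-92573795 (minus) for Ivl and chr11:99389365-99389424 (minus) for Krt10. The capitals began 30 bases before the start in Lce1a2, Lce1b, Lce1c, Lce1e and Lce1j, 32 bases before it in Lce1k, 29 bases before it in the Sprr2 genes and Ivl, and 26 bases before it in Krt10. Side by side without gaps, the 21 pairs of printed Lce1 stretches had the same base at 16 to 51 of 60 positions (median 24). The lowest counts were in pairs with Lce1k or Lce1l. The AATAAAA of Lce1k lies at another distance from the start, so this count does not line it up with the others. The 3 Sprr2 pairs shared 37 to 42, and an Lce1 and a Sprr2 stretch 14 to 26. On the gene strand, TATAAA was found in the 60 bases of 18 of 49 members (36.7%), against 3.44% of the 27025 genes in the table. It was in 7 of 7 Sprr2 and 2 of 2 Sprr1 genes, and in 2 of 13 Lce1 genes, Lce1d and Lce1m. AATAAAA was found in 10 of 49 members (20.4%), against 0.999% of all genes. Of those, 9 were Lce1 genes and the other was Lce3a. One run of ATAAA cannot belong to both motifs. TGANTCA, with N any base, was searched on both strands of the 250 bases before the start. It takes in the AP-1 site TGA(C/G)TCA but is broader, so a match need not be that site. It was in 13 of 49 members (26.5%), against 7.82% of all genes. The 13 were the 7 Sprr2 genes, Sprr1a, Sprr1b, Flg2, Rptn, Ivl and Lor, and none of the 13 Lce1 genes held it. These are matches of letters and not measured sites. Lce1 and Sprr2 are families of related copies, so probe sets of single members may take up signal from each other, and values of single copies are uncertain to that extent.

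One control array stood apart before any comparison. Over all probe sets, control array 1 correlated with the other 7 arrays at 0.518 to 0.538, whereas those 7 correlated among themselves at 0.901 to 0.966. Over the 56 genes the ranges were 0.553 to 0.636 and 0.891 to 0.97. Its value lay outside the range of the other 7 arrays for 35 of the 56 genes, below them for 24 and above for 11. The same held for 65.4% of all probe sets. The 24 low values included 9 of 14 Lce1 genes, 3 of the 4 enzymes and 3 of the 5 genes of the kallikrein group. Every comparison with control is therefore given with all 8 arrays and without control array 1, where control array 2 stands alone.

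**Figure D1:**
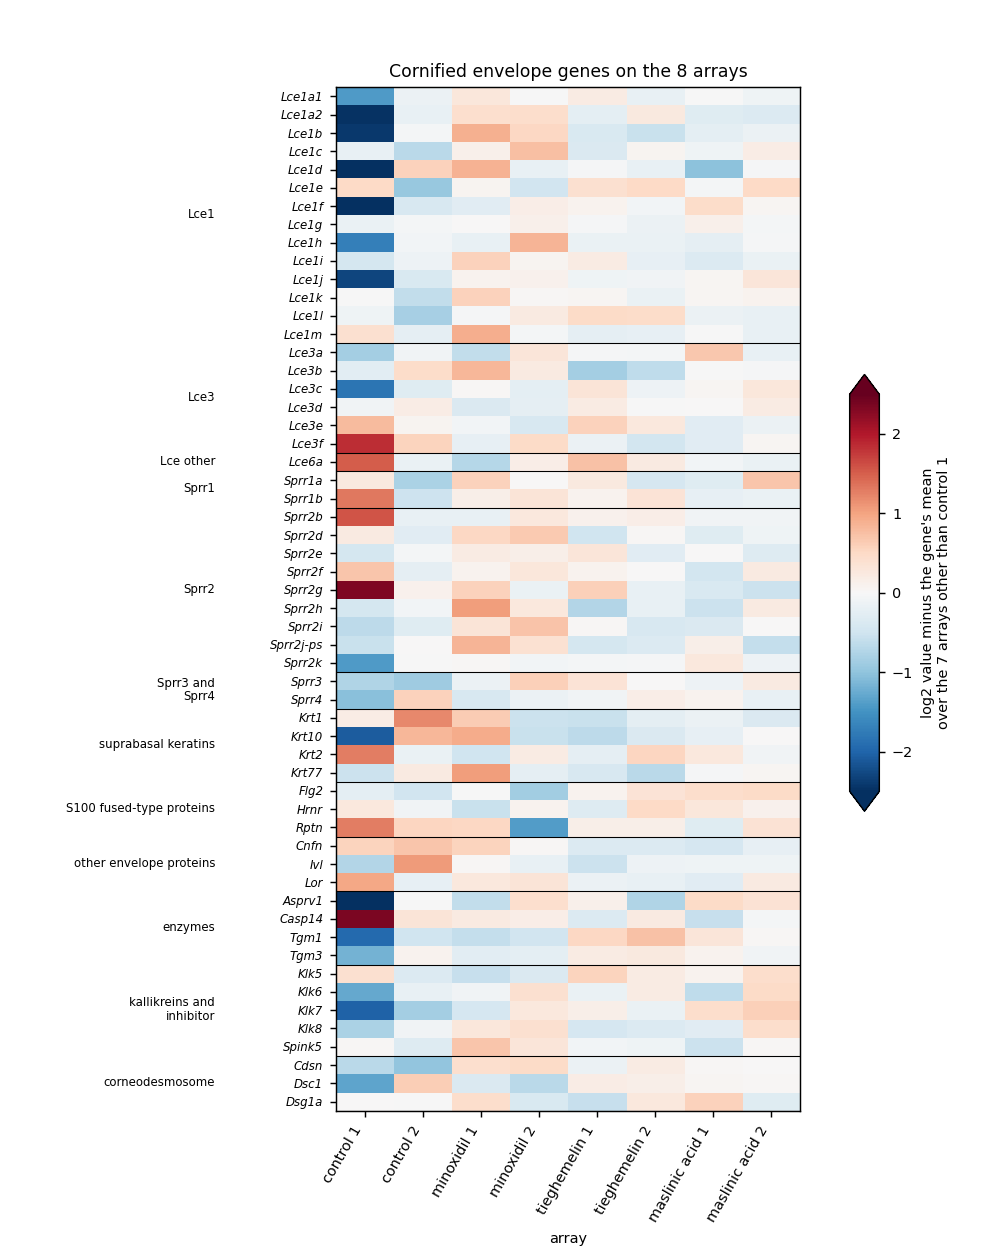
Log2 value of each of the 56 genes (rows, by subfamily) on each of the 8 arrays (columns), minus the gene's mean over the 7 arrays other than control 1. Control array 1 is the column of strong colours, with 24 genes below and 11 above the other 7 arrays, and no other column departs in this way.

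Signal was judged against the antigenomic probe sets (designed not to pair with the mouse genome), whose median per array lay between 6.96 and 7.75 on the log2 scale. Of the 56 genes, 29 were above it on all 8 arrays, 41 on all 6 treated arrays and 5 on none. The 5 were Lor, Krt2, Cnfn, Lce3b and Lce3f. On each treated array 44 to 47 genes were above background, or 78.6 to 83.9%, against 35 and 37, or 62.5% and 66.1%, on the control arrays, whose background was also higher (7.75 and 7.61). Over all probe sets the share moved in the same way, from 56.9% and 62.4% in control to 66.2 to 80.3% on the treated arrays, so this is no result about the 56 genes. Terminal differentiation was thus seen through Krt1, Krt10, Ivl, Flg2, Hrnr and most Lce and Sprr genes. Loricrin, a major envelope protein, and Krt2, a late suprabasal keratin, were not above background on any array.

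RNA of other tissue layers differed between arrays. The median over 8 skeletal muscle genes was 12.96 and 15.52 in control, 11.91 and 11.36 with minoxidil, 9.54 and 8.80 with tieghemelin, and 13.05 and 9.93 under maslinic acid. All 8 muscle genes were lower in each treatment than in control, with all arrays and a median difference of -2.23, -4.92 and -2.75. Over 7 basal keratinocyte markers the array medians were 7.74 and 9.87, 9.61 and 8.54, 8.80 and 8.84, and 9.01 and 9.14, in the same order. The part of these shifts in the results below was not tested.

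Against control, no gene of the 56 passed an adjusted p under 0.05 in limma, and the smallest adjusted p values were 0.44 for minoxidil, 0.41 for tieghemelin and 0.448 for maslinic acid. Among all 22206 probe sets 0% passed in each of the 3 comparisons, although 2502, 2609 and 2409 had an unadjusted p under 0.05. When control array 1 was left out, the smallest adjusted p among the 56 genes was 0.166, 0.146 and 0.197, and 0.0045%, 0.356% and 0.0045% of all probe sets passed (1, 79 and 1). The median 95% interval of a gene's log2 difference was 1.13 wide on either side with all 8 arrays and 0.86 without control array 1, so differences under about 2-fold were mostly not resolvable here. As a second count, the text below uses the study's own thresholds, which ask for a 1.7-fold change or more together with a p of 0.05 or less before adjustment.

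With minoxidil, 36 of the 56 genes were higher than in control and 20 lower, with a median log2 difference of 0.50 against 0.06 over all probe sets. The thresholds were met by 7 genes that were higher (12.5% of the 56), namely Lce1b, Lce1a2, Lce1j, Klk7, Cdsn, Sprr3 and Sprr2i, and by 0 that were lower. Over all probe sets, 6.98% met them as higher and 4.29% as lower. Without control array 1 the median was 0.21, and 7 genes met them as higher (Cdsn, Lce1c, Sprr3, Sprr1a, Lce1l, Lce1k, Sprr2d) and 4 as lower (Krt1, Ivl, Dsc1, Sprr4), beside 6.53% and 6.38% of all probe sets. In that fit Cdsn, Sprr3, Sprr1a, Lce1l and Lce1k were not above background on control array 2, so their differences have at most a bound. Sprr3 and Lce1l were also below background on minoxidil array 1 and have none. With control array 2 set to its background the Lce1l difference was -0.36. Only Cdsn and Sprr3 were in both lists. The number of genes at the thresholds also moved without control array 2 and without minoxidil array 2, where 1 array stood for its group. The share of all probe sets in those fits is not given, so these moves are no result about the 56 genes. Cdsn met the thresholds whichever of the 8 arrays was left out. Klk7 and Sprr2i lost them without control array 1 or minoxidil array 2, Lce1b and Lce1a2 without control array 1 or either minoxidil array, and Sprr3 without minoxidil array 2 or either tieghemelin array. Lce1j kept them in 1 of the 8 fits, the one without control array 2.

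With tieghemelin, 35 genes were higher and 21 lower, with a median of 0.22 against 0.05. The thresholds were met by 6 genes that were higher (Tgm1, Lce1f, Klk7, Sprr3, Lce1l, Cdsn) and 2 that were lower (Lce3f, Cnfn), beside 7.02% and 4.73% of all probe sets. Leaving out control array 1 gave a median of 0.11, with 5 higher (Lce1e, Lce1l, Tgm1, Sprr3, Cdsn) and 5 lower (Krt1, Ivl, Krt10, Lce3b, Cnfn), beside 6.63% and 7.12%. In that fit Lce1e, Lce1l, Sprr3 and Cdsn were not above background on control array 2, and Lce3b and Cnfn were not above it in either group. With all arrays, Lce1l and Sprr3 were above background on neither control array. With both control arrays set to background the Lce1l difference was -0.05, so it has no bound. The total of 8 became 4 when 1 of the maslinic acid arrays was left out, which changes only the estimate of the spread. It also moved without control array 2 or 1 of the tieghemelin arrays, where 1 array stood for its group. Tgm1 met the thresholds whichever array was left out. Klk7 lost them without control array 1 or tieghemelin array 1, Lce3f without control array 1 or tieghemelin array 2, Cnfn without either tieghemelin array, and Sprr3 without control array 2 or any tieghemelin or maslinic acid array. Lce1f kept them only without control array 2, and Cdsn and Lce1l only without control array 1.

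With maslinic acid, 38 genes were higher and 18 lower, with a median of 0.21 against 0.05. The thresholds were met by 6 that were higher (Klk7, Lce1f, Lce1j, Tgm1, Lce3c, Cdsn) and 4 that were lower (Sprr2g, Casp14, Lce3f, Cnfn), beside 6.39% and 4.45% of all probe sets. The median was 0.09 without control array 1, with 5 higher (Klk7, Lce1e, Cdsn, Sprr3, Flg2) and 3 lower (Krt1, Ivl, Cnfn), beside 6.21% and 6.57%. Control array 2 was not above background for Lce1e, Cdsn and Sprr3. The total of 10 became 5 without either minoxidil array and 4 when 1 of the tieghemelin arrays was left out. It also moved without control array 2 or 1 of the maslinic acid arrays, where 1 array stood for its group. Klk7 met the thresholds whichever array was left out. Tgm1 and Lce1f lost them without control array 1 or either maslinic acid array, Cnfn without any tieghemelin or maslinic acid array, Casp14 without control array 1 or any minoxidil or maslinic acid array, and Lce3f without control array 1 or any tieghemelin or maslinic acid array. Lce1j, Lce3c and Sprr2g kept them only without control array 2, and Cdsn only without control array 1.

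These 3 comparisons share the same control arrays. In 6 genes all 6 treated arrays lay above both control arrays: Cdsn, Klk7, Sprr3, Lce1f, Lce1j and Lce3c (10.7% of the 56, beside 9.15% of all probe sets). In 3 genes, Casp14, Rptn and Lce3f, all 6 lay below (5.36%, beside 6.93%). Both shares are near the background.

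**Figure D2:**
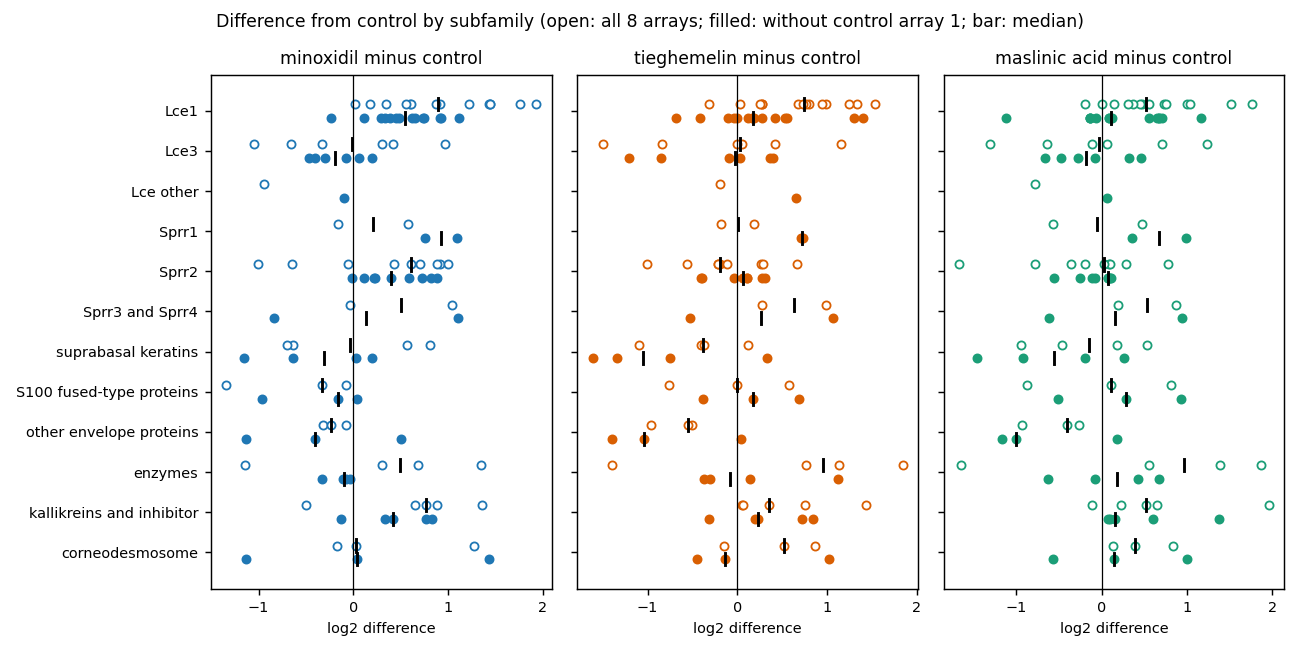
Log2 difference of each treatment from control for every gene (points), by subfamily, with the subfamily median as a bar; open points use all 8 arrays and filled points leave out control array 1. The Lce1 medians move toward 0 when control array 1 is left out. They go from 0.89 to 0.55 for minoxidil, 0.74 to 0.18 for tieghemelin and 0.51 to 0.11 for maslinic acid. However, 5, 5 and 6 of the 14 points move away from 0. Lce1e, Lce1i, Lce1k, Lce1l and Lce1m were not above background on control array 2. The medians of keratins and other envelope proteins move further below 0. Among the other envelope proteins, Lor and Cnfn were above background on no array. Without control array 1 the median of that subfamily is the value of Cnfn.

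Among the suprabasal keratins, Krt1, the keratin that marks commitment to differentiation, had log2 values of 9.32 and 10.33 in control, 9.77 and 8.59 with minoxidil, 8.56 and 8.89 with tieghemelin, and 8.97 and 8.77 on the maslinic acid arrays. Both tieghemelin and both maslinic acid arrays lay below both control arrays, and the minoxidil arrays overlapped them. With all arrays the log2 difference was -0.64, -1.10 and -0.95 (SE 0.52 each), which met no threshold. It was -1.15, -1.61 and -1.46 (SE 0.48, limma adjusted p 0.348, 0.183 and 0.24), or 2.21-, 3.05- and 2.75-fold lower, when control array 1 was left out.

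Krt10, the partner of Krt1 in the filament, read 8.48 and 11.38 in control, 11.49 and 9.99 with minoxidil, 9.90 and 10.20 with tieghemelin, and 10.35 and 10.57 under maslinic acid. The control pair spanned all treated arrays but 1. Its difference from control was therefore 0.81, 0.12 and 0.53 with all arrays and -0.64, -1.34 and -0.92 without control array 1. Krt77, a keratin of suprabasal epidermis and sweat ducts, read 8.90 and 9.65, 10.48 and 9.21, 9.03 and 8.76, and 9.41 and 9.49, in the same order, with no separation from control in any treatment when all arrays were used. Krt2 read 7.47 and 6.01, 5.68 and 6.39, 5.96 and 6.72, and 6.44 and 6.09, below the array's background throughout.

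The 2 minoxidil arrays disagreed in this group. Array 1 was above array 2 by 1.18 for Krt1, 1.50 for Krt10, 1.27 for Krt77 and 1.92 for Rptn, beside a median absolute gap of 0.46 over the 56 genes. The basal marker median was also higher on minoxidil array 1 (9.61 against 8.54). The lower Krt1 and Ivl without control array 1 rest on control array 2, which had the highest basal marker median of the 8 arrays (9.87), the highest muscle median (15.52) and the highest fibroblast marker median (10.13). In that fit 6, 5 and 5 of the 7 basal markers were lower in minoxidil, tieghemelin and maslinic acid, with medians of -1.12, -1.59 and -1.47, and the differences of Krt5 were -2.81, -4.2 and -2.93. The part of that shift in the keratin differences was not tested.

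Of the S100 fused-type genes, Flg2, which helps form the cornified layer beside filaggrin, read 8.44 and 8.21 in control, 8.68 and 7.82 with minoxidil, 8.78 and 9.02 with tieghemelin, and 9.12 and 9.16 on the maslinic acid arrays. The tieghemelin and maslinic acid arrays lay above both control arrays. The log2 difference was -0.08, 0.58 and 0.81 (SE 0.40), and 0.04, 0.69 and 0.93 (SE 0.42) without control array 1, where only maslinic acid met the thresholds (limma adjusted p 0.389). Hrnr, hornerin, read 9.29 and 8.95, 8.47 and 9.12, 8.72 and 9.53, and 9.31 and 9.14, and its groups overlapped in all 3 comparisons with control. Rptn, repetin, had the lowest difference of the 56 genes with minoxidil (-1.34, SE 0.63, limma adjusted p 0.443), from minoxidil arrays at 9.88 and 7.97 and control arrays at 10.64 and 9.89.

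Ivl, the early scaffold protein, read 8.63 and 10.42 in control, 9.40 and 9.17 with minoxidil, 8.82 and 9.23 with tieghemelin, and 9.25 and 9.25 under maslinic acid. All 6 treated arrays lay between the 2 control arrays. With all arrays the difference was -0.24, -0.50 and -0.27 (SE 0.56), and without control array 1 it was -1.13, -1.39 and -1.17 (SE 0.36, limma adjusted p 0.245, 0.146 and 0.226). Lor read 7.67 and 6.50, 6.97 and 7.03, 6.56 and 6.52, and 6.43 and 6.93, each below its array's background. Cnfn, cornifelin, read 7.47 and 7.61, 7.48 and 6.95, 6.57 and 6.58, and 6.50 and 6.72, also each at or below background, and the background median was itself lower on the tieghemelin and maslinic acid arrays. Its differences of -0.96 and -0.93 for those groups met the thresholds, but give no fold for that reason.

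**Figure D3:**
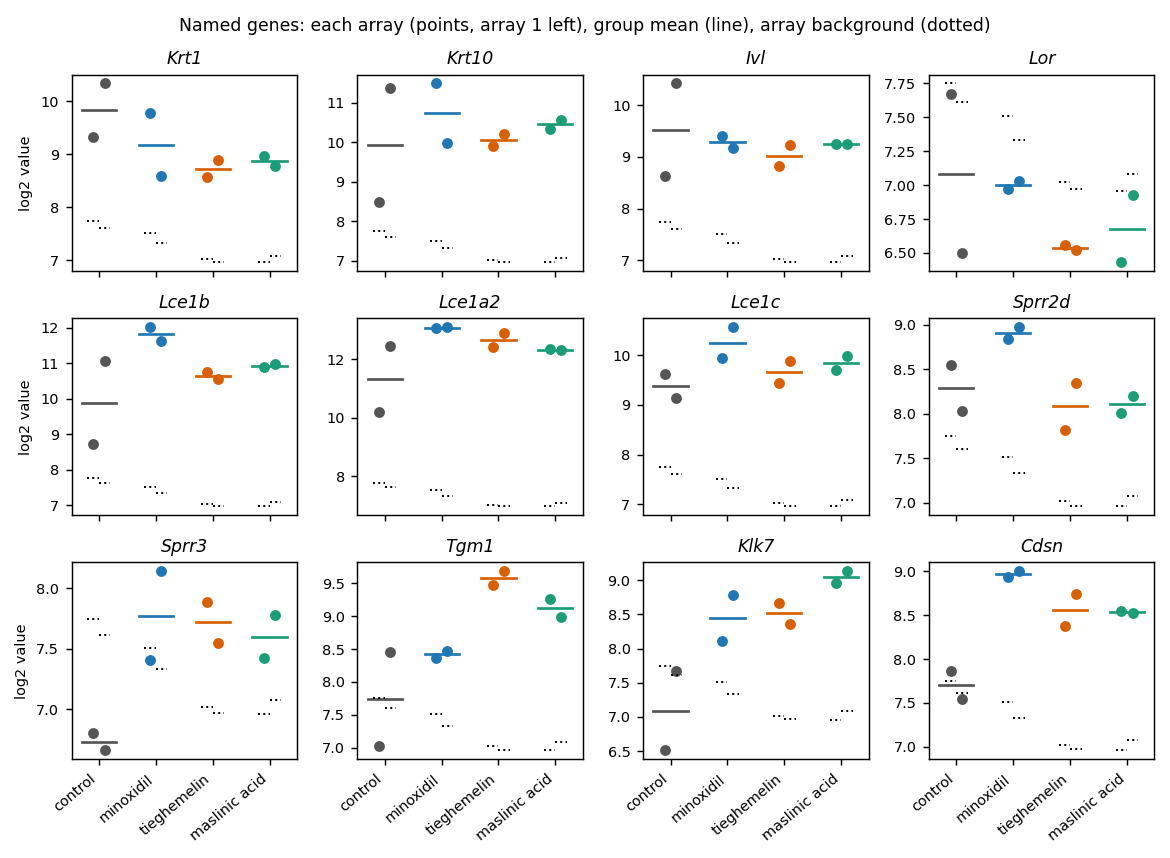
Log2 values of 12 genes on each array, array 1 on the left of each pair (points), with the group mean (line) and the background median of each array (dotted). Cdsn, Klk7 and Sprr3 show all 6 treated arrays above both control arrays, whereas the control arrays of Krt10 and Ivl lie far apart; the vertical axes differ between panels.

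The Lce1 proteins reinforce the envelope late, and nearly all of their genes were higher than control with all arrays. All 14 were higher with minoxidil than in control (median 0.89, 3 at the thresholds), and 13 of 14 in each of the other treatments (median 0.74 for tieghemelin and 0.51 for maslinic acid, 2 at the thresholds in each). Over all probe sets 53.3%, 52.4% and 52.7% were higher, and 11.3%, 11.7% and 10.8% met the thresholds in either direction, beside 21.4%, 14.3% and 14.3% of the Lce1 genes. The last of these shares are near the background. Without control array 1, which was the lowest array for 9 of the 14, the counts were 13, 9 and 9, with medians of 0.55, 0.18 and 0.11. The minoxidil median thus kept its sign and lost part of its size, and the medians of the other treatments came near 0. Only 9 of the 14 genes were above background on control array 2. Lce1e, Lce1i, Lce1k, Lce1l and Lce1m were not, so the medians without control array 1 include control readings within the background.

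Lce1b read 8.71 and 11.07 in control, 12.01 and 11.64 with minoxidil, 10.74 and 10.56 with tieghemelin, and 10.89 and 10.97 on the maslinic acid arrays. The minoxidil arrays were the highest 2 of the 8. With all arrays Lce1b was 3.82-fold higher with minoxidil (log2 1.93, SE 0.68, limma adjusted p 0.44), and 1.68-fold without control array 1 (0.75, SE 0.36, limma adjusted p 0.409), when it no longer met the thresholds. Against control array 2 alone it was -0.42 with tieghemelin and -0.14 with maslinic acid.

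Lce1a2, whose stretch before the start resembles that of Lce1b, read 10.19 and 12.47 in control, 13.08 and 13.10 with minoxidil, 12.42 and 12.90 with tieghemelin, and 12.35 and 12.31 under maslinic acid. Here too the minoxidil arrays were the highest 2. It was 3.39-fold higher with minoxidil (1.76, SE 0.67, limma adjusted p 0.44), and 0.62 on the log2 scale without control array 1. Lce1j read 8.47 and 10.40, 10.87 and 10.89, 10.66 and 10.68, and 10.83 and 11.08, with all 6 treated arrays above both controls. Its difference was 1.44, 1.24 and 1.52 (SE 0.58), and 0.48, 0.27 and 0.56 without control array 1.

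Lce1f read 6.70 and 8.91 in control, 9.02 and 9.47 with minoxidil, 9.41 and 9.25 with tieghemelin, and 9.77 and 9.36 on the maslinic acid arrays. Control array 1 lay far under the rest, and its removal took the difference from 1.44, 1.53 and 1.76 to 0.33, 0.42 and 0.65. That array was below its background (7.75), and with its value set to the background the differences over all arrays were 0.91, 1.0 and 1.23. A few Lce1 genes behaved otherwise and were picked after their values were seen. Lce1c read 9.63 and 9.14 in control and 9.94 and 10.56 with minoxidil, a difference of 0.87 that became 1.12 without control array 1. Lce1e read 8.40 and 6.97 in control and 8.32 and 8.41 with tieghemelin. Control array 1 was here the higher of the pair, and control array 2 was below its background. With that array set to its background the tieghemelin difference was 0.36 over all arrays (0.68 as measured). Without control array 1 it was 0.75 (1.40 as measured), a bound of at least 1.68-fold. The minoxidil difference of Lce1e over all arrays went from 0.02 to -0.3 in the same way. Lce1g, in contrast, kept within 9.34 to 9.64 on all 8 arrays.

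The Lce3 genes, whose human counterparts are known for induction after barrier injury, had no common direction: 3 of 6 were higher in each treatment with all arrays, and their medians were -0.01, 0.02 and -0.03. Lce3c was the one that met the thresholds as higher, with maslinic acid, from 8.80 and 10.32 in control to 10.67 and 10.90 (1.23, SE 0.52, limma adjusted p 0.458; 0.46 without control array 1). Lce3f read 7.10 and 5.81, 5.06 and 5.75, 5.12 and 4.80, and 4.98 and 5.32, and Lce3b 5.38 and 6.12, 6.48 and 5.87, 4.80 and 5.01, and 5.65 and 5.63. Both were below background on every array, so their differences give no fold.

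Among the 13 Sprr genes, whose proteins act as flexible bridges in the envelope, 8 were higher with minoxidil (median 0.58), 6 with tieghemelin (median -0.12) and 8 with maslinic acid (median 0.09). Without control array 1 the counts were 11, 9 and 8, with medians of 0.59, 0.11 and 0.07. The minoxidil median was thus nearly the same with and without that array, and the tieghemelin median changed sign. Sprr3 was the only Sprr gene to meet the thresholds against control in more than 1 treatment.

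Sprr3 read 6.80 and 6.66 in control, 7.41 and 8.14 with minoxidil, 7.89 and 7.55 with tieghemelin, and 7.42 and 7.78 under maslinic acid. All 6 treated arrays were above both controls, and neither control array was above its background. The difference was 1.04, 0.99 and 0.87 (SE 0.40), and 1.11, 1.06 and 0.94 without control array 1. Because the control reading is only a bound, Sprr3 was at least 1.03-fold higher with tieghemelin. Minoxidil array 1 was below its background, so no fold is given for minoxidil, and none is given for maslinic acid.

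Sprr2d read 8.55 and 8.03 in control, 8.84 and 8.97 with minoxidil, 7.82 and 8.35 with tieghemelin, and 8.01 and 8.20 on the maslinic acid arrays, and only minoxidil lay above both controls. Its minoxidil difference was 0.61 with all arrays and 0.88 without control array 1 (SE 0.37, limma adjusted p 0.36). Sprr2i, named after its values were seen, read 9.13 and 9.49 in control and 10.12 and 10.50 with minoxidil, 2.00-fold higher (1.00, SE 0.38, limma adjusted p 0.44), and 0.82 without control array 1. Sprr2j-ps, a pseudogene of the family, read 9.62 and 10.19 in control, 11.02 and 10.55 with minoxidil, 9.73 and 9.84 with tieghemelin, and 10.32 and 9.57 under maslinic acid.

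Sprr2g went the other way, at 8.16 and 5.93 in control, 6.41 and 5.66 with minoxidil, 6.42 and 5.65 with tieghemelin, and 5.44 and 5.30 on the maslinic acid arrays. Control array 1 was the one array above background. The maslinic acid difference was -1.67 (SE 0.70, limma adjusted p 0.457), and -0.56 without that array. Control array 2 was below its background, so no fold is given. Sprr2h read 6.14 and 6.51, 7.62 and 6.84, 5.84 and 6.40, and 6.04 and 6.81, and was above background on minoxidil array 1 alone.

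Of the enzymes, transglutaminase 1 (Tgm1), the membrane-bound enzyme that anchors the envelope, read 7.02 and 8.46 in control, 8.37 and 8.47 with minoxidil, 9.48 and 9.68 with tieghemelin, and 9.26 and 8.98 under maslinic acid. The tieghemelin and maslinic acid arrays lay above both controls and above both minoxidil arrays. Tgm1 was 3.59-fold higher with tieghemelin (1.84, SE 0.49, limma adjusted p 0.41) and 2.61-fold with maslinic acid (1.39, SE 0.49, limma adjusted p 0.448). Control array 1 was below its background, and set to it the folds were 2.78 and 2.03. Against control array 2 alone these were 1.12 (SE 0.35) and 0.67 (SE 0.35), and the minoxidil difference went from 0.68 to -0.04.

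Tgm3, the soluble transglutaminase, read 8.09 and 9.35 in control, 9.0 and 9.03 with minoxidil, 9.47 and 9.51 with tieghemelin, and 9.36 and 9.18 on the maslinic acid arrays. Its differences were 0.30, 0.77 and 0.55 (SE 0.46) and -0.33, 0.14 and -0.08 without control array 1. Casp14, a caspase that takes part in breaking down filaggrin, read 9.68 and 7.63, 7.55 and 7.49, 6.98 and 7.55, and 6.75 and 7.27, and every treated array lay below both controls. The maslinic acid difference of -1.65 (SE 0.64, limma adjusted p 0.453), 3.14-fold lower as measured and 2.91-fold with maslinic acid array 1 set to its background, became -0.63 without control array 1.

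In the kallikrein group, Klk7, a chymotryptic protease that cuts corneodesmosomes, read 6.51 and 7.67 in control, 8.11 and 8.79 with minoxidil, 8.67 and 8.36 with tieghemelin, and 8.96 and 9.13 under maslinic acid. All 6 treated arrays were above both control arrays. Control array 1 was below its background (7.75), and control array 2 just above it (7.61). Klk7 was 2.56-, 2.69- and 3.88-fold higher as measured (1.36, 1.43 and 1.96, SE 0.48, limma adjusted p 0.44, 0.41 and 0.448), and 1.67-, 1.75- and 2.52-fold with that array set to its background. Against control array 2 alone the difference was 0.77, 0.84 and 1.37 (SE 0.40), and the thresholds were met for maslinic acid alone (limma adjusted p 0.197).

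Klk5, the tryptic protease that activates Klk7, read 7.45 and 6.70, 6.47 and 6.68, 7.59 and 7.25, and 7.12 and 7.48, and was above background on the tieghemelin and maslinic acid arrays and on no control or minoxidil array. The background median was also lower on those 4 arrays than on the others. Spink5, which encodes the inhibitor LEKTI, read 8.30 and 7.95 in control, 8.96 and 8.58 with minoxidil, 8.20 and 8.16 with tieghemelin, and 7.73 and 8.30 on the maslinic acid arrays. Both minoxidil arrays were the highest of the 8, with a difference of 0.65 (SE 0.38, limma adjusted p 0.477) that met no threshold.

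Corneodesmosin (Cdsn), the adhesive protein of the corneodesmosome that the kallikreins cut, was outside the rule for genes given in full and is described because its values were seen to hold. It read 7.86 and 7.54 in control, 8.94 and 9.0 with minoxidil, 8.38 and 8.74 with tieghemelin, and 8.55 and 8.53 under maslinic acid. All treated arrays were above both controls, and the minoxidil arrays above the other 4. Cdsn was 2.41-, 1.82- and 1.79-fold higher (1.27, 0.86 and 0.84, SE 0.35, limma adjusted p 0.44, 0.419 and 0.457), and 1.43, 1.02 and 1.00 on the log2 scale without control array 1. Control array 2 (7.54) was just below its background (7.61), and set to it the folds over all arrays were 2.36, 1.77 and 1.75. Without control array 1 Cdsn was therefore at least 2.57-, 1.93- and 1.9-fold higher. For tieghemelin and maslinic acid it met the thresholds in 1 of 8 fits that left out an array, the one without control array 1, with a difference of 0.68 to 1.04 and 0.68 to 1.00 over those fits. Of the corneodesmosomal cadherins, Dsg1a met no threshold in any comparison, and Dsc1 met them as lower with minoxidil without control array 1 alone (-1.13).

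The treated groups were also compared with each other, on the 6 treated arrays, where the median 95% interval was 0.70 wide on either side. No gene of the 56 passed an adjusted p under 0.05. The smallest limma adjusted p was 0.22 for tieghemelin against minoxidil, 0.256 for maslinic acid against minoxidil and 1 for tieghemelin against maslinic acid. Over all probe sets 0% passed in each, with 2845, 3024 and 507 at an unadjusted p under 0.05.

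With tieghemelin, 20 genes were higher and 36 lower than with minoxidil (median -0.18, against -0.03 over all probe sets). The thresholds were met by 2 genes that were higher, Tgm1 and Klk5, and 6 that were lower, Lce3b, Lce1b, Sprr2h, Sprr2j-ps, Krt77 and Sprr2d, beside 4.95% and 5.47% of all probe sets. The total of 8 moved when an array of either group was left out. Lce1b, Lce3b and Tgm1 met them whichever of the 6 arrays was left out, and Lce3b was below background throughout.

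Lce1b was 2.25-fold lower with tieghemelin than with minoxidil (log2 -1.17, SE 0.29, limma adjusted p 0.22), and its range over the fits that left out an array was -1.35 to -0.99. Tgm1 was 2.23-fold higher (1.16, SE 0.29, limma adjusted p 0.22), with a range of 1.06 to 1.26. Sprr2j-ps was 1.99-fold lower (-1.0, SE 0.34) and Sprr2d 1.77-fold lower (-0.82, SE 0.30). Sprr2h differed by -1.11 (SE 0.39), with minoxidil array 2 and both tieghemelin arrays below background, so no fold is given. All of these lost the thresholds without tieghemelin array 1 and without 1 of the minoxidil arrays (array 2 for Sprr2d, array 1 for the others). Krt77 was 1.93-fold lower (-0.95, SE 0.40), but the difference was -0.31 without minoxidil array 1, and the thresholds were also lost without either tieghemelin array. Klk5 differed by 0.84 (SE 0.30), with both minoxidil arrays below background and no fold, and lost the thresholds without array 1 of either group.

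With maslinic acid, 21 genes were higher and 35 lower than with minoxidil (median -0.23, against -0.03). Flg2 was higher at the thresholds and Lce1b, Sprr2j-ps and Sprr2d were lower, beside 5.3% and 5.79% of all probe sets. The total of 4 moved when an array of either group was left out. Lce1b was 1.86-fold lower (-0.89, SE 0.29, limma adjusted p 0.256), Sprr2j-ps 1.79-fold (-0.84, SE 0.34) and Sprr2d 1.74-fold (-0.80, SE 0.30). Lce1b lost the thresholds without array 1 of either group, Sprr2d without minoxidil array 2 or maslinic acid array 1, and Sprr2j-ps without minoxidil array 1 or maslinic acid array 2 (-0.47 in the latter fit). Flg2 was 1.85-fold higher (0.89, SE 0.34, limma adjusted p 0.293), and 0.46 on the log2 scale without minoxidil array 2; it lost the thresholds there and without either maslinic acid array. Both comparisons share the minoxidil arrays, so the recurrence of Lce1b, Sprr2d and Sprr2j-ps in them is not 2 separate observations.

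**Figure D4:**
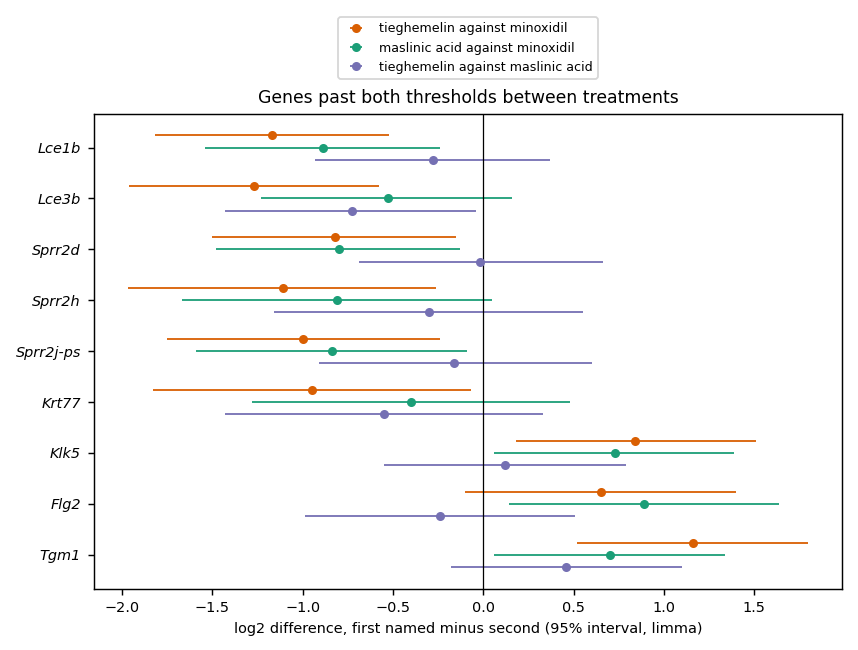
Log2 difference between treatments, with its 95% interval from limma on the 6 treated arrays, for the 9 genes that met the study's thresholds in a comparison between treatments. Lce1b, Sprr2d and Sprr2j-ps lie below 0 against minoxidil for both other compounds, Tgm1 lies above it, and tieghemelin and maslinic acid differ by -0.02 to -0.73 or by 0.12 to 0.46; Lce3b was below background on all arrays.

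Both minoxidil arrays lay above the 4 other treated arrays for 11 genes: Lce1b, Lce1a2, Lce3b, Sprr2d, Sprr2h, Sprr2i, Sprr2j-ps, Cdsn, Spink5, Lor and Cnfn (19.6% of the 56, beside 15.3% of all probe sets). Lor, Cnfn and Lce3b among them were above background on no array and Sprr2h on minoxidil array 1 alone, and the background median was higher on the minoxidil arrays (7.51 and 7.33) than on the 4 others (6.96 to 7.08), so for these the order lies within the background. They lay below them for 6, namely Tgm1, Tgm3, Dsc1, Flg2, Klk5 and Lce3d (10.7%, beside 12.6%). Of 9 Sprr2 genes, 8 were lower with maslinic acid than with minoxidil (median -0.67) and 7 with tieghemelin (median -0.17). The maslinic acid median is the value of Sprr2g, which was above background on no treated array. Over all probe sets, 11732 of 22206 were lower with tieghemelin than with minoxidil. Both comparisons share the minoxidil arrays. Of 14 Lce1 genes, 11 were lower in each (median -0.33 and -0.35). All 3 S100 fused-type genes were higher in each, with medians of 0.46 and 0.58. For Rptn this rested on minoxidil array 2 (7.97), since minoxidil array 1 (9.88) lay above the 4 other treated arrays. For Hrnr the minoxidil arrays (8.47 and 9.12) overlapped the tieghemelin arrays (8.72 and 9.53). The inner root sheath is another cornifying lineage of the follicle. The median of its markers was lower on the minoxidil arrays (7.88 and 7.99) than on the 4 other treated arrays (8.60 to 8.81). Krt27, Krt28 and Tchh lay below those 4 arrays on both minoxidil arrays, whereas Krt25, Krt71 and Krt73 overlapped them. The part of these markers in the differences was not tested.

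Tieghemelin and maslinic acid, the pair of test compounds, were given at the same dose and time. Of the 56 genes 25 were higher and 31 lower with tieghemelin (median -0.02, against 0.01 over all probe sets), and 0 met the thresholds in either direction, beside 0.684% and 0.878% of all probe sets. Without tieghemelin array 1 or tieghemelin array 2 the count was 1. Differences ran from -0.74 for Asprv1 (95% interval -1.64 to 0.16) to 0.67 for Sprr2g (-0.14 to 1.48). For Tgm1 the difference was 0.46 (-0.18 to 1.10), for Klk7 -0.53 (-1.25 to 0.19), for Lce1b -0.28 (-0.93 to 0.37) and for Krt1 -0.15 (-1.01 to 0.71). These intervals admit differences of 1.5-fold and more, and so do not show that the compounds act alike. Both tieghemelin arrays were above the 4 other treated arrays for 6 genes: Tgm1, Tgm3, Dsc1, Lce1l, Lce3e and Lce6a. They were below them for 6: Krt77, Lce1b, Lce1j, Lce1m, Lce3b and Klk8 (10.7% each, beside 5.51% and 5.83% of all probe sets). Lce1m, Lce3b and Klk8 were below background on both tieghemelin arrays, and Lce3e and Lce6a on the 4 other treated arrays. For these the order rests on readings within the background. Both maslinic acid arrays were above the rest for Flg2 and Klk7 and below for Lce1a2, Lce1l, Sprr1b and Sprr2g (3.57% and 7.14%, beside 5.81% and 6.77%). Sprr2g was above background on no treated array.

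The spread within groups sets how far these differences can be read. The median absolute gap between the 2 arrays of a group over the 56 genes was 1.02 in control, 0.46 with minoxidil, 0.27 with tieghemelin and 0.22 with maslinic acid. Over all probe sets it was 0.89, 0.39, 0.29 and 0.31. Across the 6 treated arrays the steadiest genes were Lce1g (range 0.27), Sprr2k (0.38) and Lce1j (0.42), and the most variable were Rptn (1.92), Lce1d (1.89) and Sprr2h (1.78).

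Genes that work with the cornified envelope but were not members gave no common direction either, and none of those named passed an adjusted p under 0.05 in limma. Of 16 measured genes of the cornified lipid barrier, 10, 10 and 7 were higher than control with minoxidil, tieghemelin and maslinic acid, and 10, 7 and 5 without control array 1. Cers3, which makes the very long ceramides of the barrier, read 6.75 and 8.38 in control, 7.96 and 7.83 with minoxidil, 8.06 and 8.03 with tieghemelin, and 6.85 and 7.23 on the maslinic acid arrays. Both maslinic acid arrays lay below all other treated arrays, with a difference of -0.86 from minoxidil (SE 0.29, limma adjusted p 0.268). Of 12 other genes of the epidermal differentiation complex, 8, 8 and 9 were higher than control, and 2, 5 and 6 without control array 1.

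Of 10 other epidermal proteases and inhibitors, 7, 8 and 6 were higher than control, and 8, 8 and 6 without control array 1. Klk13, a further kallikrein, read 6.02 and 7.35 in control, 7.71 and 7.78 with minoxidil, 8.36 and 8.55 with tieghemelin, and 8.64 and 8.38 under maslinic acid, above both controls on all 6 treated arrays. Neither control array was above background, so Klk13 was at least 1.71-fold higher with tieghemelin and at least 1.77-fold with maslinic acid, and at least 1.79- and 1.86-fold without control array 1. The measured differences were 1.77 and 1.82 (SE 0.47, limma adjusted p 0.41 and 0.448), and 1.10 and 1.16 (SE 0.35, limma adjusted p 0.213 and 0.214) in the latter fit. Of 13 plakins, desmosome and junction genes, 7, 8 and 6 were higher than control, and 4, 6 and 4 without control array 1. Of 15 regulators of terminal differentiation, 7, 8 and 9 were higher, and 6, 7 and 8 without that array. Hopx, a cofactor of keratinocyte differentiation, read 6.99 and 7.62 in control, 6.28 and 6.28 with minoxidil, 7.28 and 7.23 with tieghemelin, and 7.65 and 7.16 on the maslinic acid arrays, lowest on the minoxidil arrays, where it was below background.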

How the data were processed

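The deposited values are log2 signals per probe set. Per the series' design text the authors normalised the scans in Transcriptome Analysis Console 4.0.1. The submitters' processing notes also name RMA and Affymetrix Expression Console. RMA quantile-normalises arrays, which removes differences in total signal between them. The deposited values did not all share 1 distribution. Over all probe sets tested, the standard deviation was 1.32 on control array 1 and 1.62 to 1.69 on the others. The median was 7.96 on control array 1 and 8.03 to 8.06 on the others. A genome build was not given in the sources used here. Of 28846 probe sets 6640 array controls were left out, and 22206 were tested without further filtering. Names came from the platform annotation: 19572 probe sets had 1 symbol, 0 several and 2634 none. All 56 members matched a RefSeq gene by gene ID.

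Groups were compared with limma 3.58.1 (R 4.3.3, eBayes, Benjamini-Hochberg over all probe sets), checked on simulated data. Comparisons with control used all 8 arrays (4 residual degrees of freedom), and pairs of treatments the 6 treated arrays (3). With 2 arrays against 2, no permutation p can go below 0.33. A gene not above the background median on any array of a group has at most a bound. Arrays below the median are set to it. No fold is given where this leaves none, or where an array of the higher group is also below the median. Where 1 array of the lower group is below it, a difference with that array set to the median is given beside the one as deposited. Values on every array are given for 13 well-known members with a probe set, and in each of the 6 comparisons for up to 4 members per direction with the largest difference at the study's thresholds and no overlap. From the other gene lists, genes with large differences were named. The members and lists were chosen with earlier results of these data known.

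The alternatives were quantile normalization, a common median, brighter probe sets alone, trend and robust eBayes, a replicate block, other sets of arrays in the fit, and each array left out. Control array 1 left out together with quantile normalization, and single arrays set to their background, were added after seeing the data.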

Additional observations from a re-analysis of the deposited data

How the results depend on the processing

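Of the 26 genes given in full, none that met the study's thresholds in a comparison as first fitted changed sign there under the alternatives counted. Setting a whole group to its background was not counted. With the lower group so set, Lce3f went from -1.5 to 0.54 with tieghemelin and from -1.31 to 0.56 with maslinic acid against control. For tieghemelin against minoxidil Lce3b went from -1.27 to 0.82 and Klk5 from 0.84 to -0.0. Krt10 with tieghemelin, which did not meet the thresholds (0.12), was -1.34 without control array 1. Counts of members at the thresholds moved as follows. Against control the main counts were 7 for minoxidil, 8 for tieghemelin and 10 for maslinic acid. A fit on the 2 groups alone gave 1, 1 and 1. Leaving out single arrays gave 2 to 32, 2 to 26 and 1 to 29, with the highest value in each without control array 2. Control array 1 left out with quantile normalization, chosen after seeing the data, gave 11 for minoxidil and 6 for maslinic acid. A common median gave 5 for tieghemelin. Keeping only brighter probe sets, which tests 37 members against control and 38 between treatments, gave 3 for tieghemelin, 5 for maslinic acid and 5 for tieghemelin against minoxidil (8). A fit on all 8 arrays gave 4 there and 0 for maslinic acid against minoxidil (4). Leaving out single arrays gave 4 to 13, 2 to 16 and, for tieghemelin against maslinic acid (0), 0 to 1.

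Probe sets at an adjusted p under 0.05 in limma (0 in all 6 comparisons, with 507 to 3024 at an unadjusted p under 0.05) reached 0 to 8363, 0 to 8427 and 0 to 8282 for minoxidil, tieghemelin and maslinic acid against control with single arrays left out, the highest again without control array 2. Control array 1 left out with quantile normalization gave 38 for tieghemelin. Maslinic acid against minoxidil had 1 under quantile normalization, 1 under trend and robust eBayes and 0 to 1 with arrays left out, and tieghemelin against maslinic acid 0 to 7. The members' median for tieghemelin against minoxidil was -0.11 under quantile normalization, and that for maslinic acid against minoxidil -0.08 with brighter probe sets. With arrays left out they spanned -0.20 to -0.10 and -0.24 to -0.10, and for tieghemelin against maslinic acid -0.06 to 0.05. The causes were not tested. The median of the 4 enzymes went from 0.49 to -0.10 with minoxidil, from 0.95 to -0.08 with tieghemelin and from 0.97 to 0.18 with maslinic acid when control array 1 was left out.

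Replicate numbers do not pair the arrays. Each array was taken as its departure from its group mean, and these departures were correlated between same-numbered arrays of different groups. The correlations were -0.17 to 0.09. They are not correlations of the array values themselves. With the number as a replicate block the counts of members were 8, 5 and 8 against control and 8, 4 and 0 between treatments, and no probe set passed the adjusted threshold.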
